A study of Ascaris suum with 9 samples.

Results

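In larvae of the pig roundworm Ascaris suum that had received solvent alone, 150 transcripts took 22.2% of all counted reads. They are the 150 genes with the highest mean level over the 3 solvent control libraries, selected on CPM, read counts scaled to library size, with edgeR's TMM factors. Identifiers beginning AgE were left out of the choice. The members make up 0.835% of the 17974 genes in the table and come from 17293 genes without an AgE identifier. The label of the set speaks of untreated larvae, but the controls had received solvent.

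The series holds 9 libraries of whole larvae in 3 groups of 3. Solvent controls were compared with larvae exposed for 3 hours to biochanin A at 100 µM or to red clover extract at 200 µg/mL. Strain, larval stage, larvae per library and the name of the solvent were not stated in the labels. Biochanin A is a methylated isoflavone made by red clover and other legumes. How much of it the extract contained was not stated either.

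A transcriptome is usually dominated by comparatively few genes, and in nematodes these commonly code for ribosomal, muscle, cuticle, mitochondrial and secreted proteins. CPM is a share of a library, so a rise of very abundant transcripts lowers what is left for all others unless the scaling corrects for it. CPM is also not divided by transcript length, so a rank given here orders read counts and not molecules. The table pairs no identifier with a gene name, product or sequence, so which of these functions the members carry was not analysed here. Members are therefore described by identifier or by their rank in the controls, where rank 1 is the most abundant.

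Library totals ran from 44324212 to 53786882 counts, and the smallest count of any member in any library was 18213. All 150 members passed the filter on low counts, as did 15177 genes in all. The TMM factors were 1.06 to 1.10 for control, 0.93 to 0.95 for biochanin A and 0.95 to 1.01 for extract libraries, so the scaling itself differed between groups. Replicates were not duplicates of one another: chi-square divided by its degrees of freedom was 17.1 to 124 for the pairs of the same group.

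Levels fell steeply with rank. The most abundant member, AgB01_g233, stood at 21625, 21343 and 21628 CPM in control replicates 1 to 3. The consecutively numbered AgB01_g234, the next in rank, stood at 15301, 15226 and 15480 CPM there. These 2 identifiers were picked out after their values were seen. The group mean was 3336 CPM at rank 10, 1072 CPM at rank 50 and 541.9 ± 53.2 CPM (SD, n = 3) at rank 150, which is the last inside the limit. The first gene outside it stood at 536.3 ± 16.4 CPM, so the limit cuts through a continuous range. In all, 51 members were above 1000 CPM and the median member was at 790.3 CPM. Rank 1 carried 39.7 times as many counts as rank 150. Of the AgE identifiers left out, 3 exceeded the limit, and their joint share was 1.63 ± 0.08% for control, 1.93 ± 0.20% for biochanin A and 2.09 ± 0.27% for extract libraries.

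**Figure D1:**
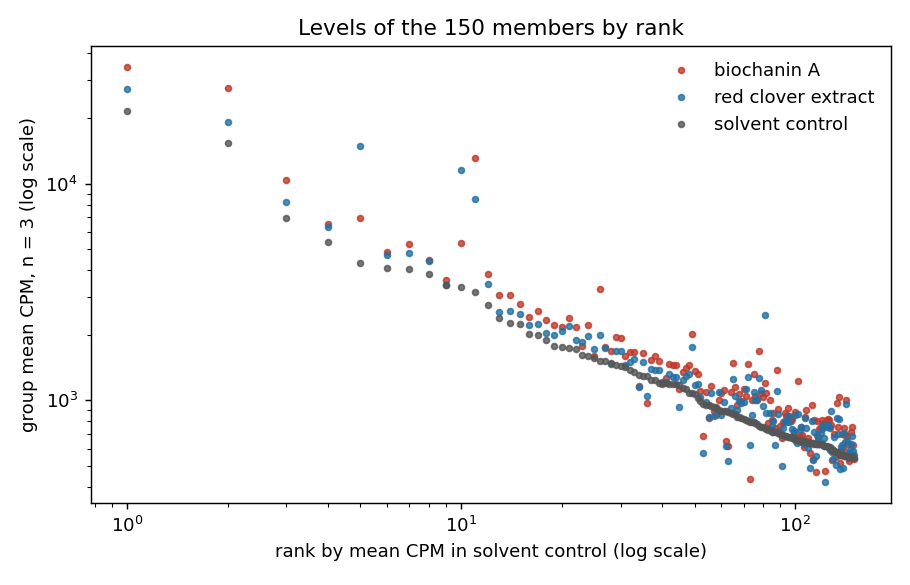
Mean CPM (n = 3, log scale) of each of the 150 members in solvent control, biochanin A and red clover extract, against the member's rank in control (log scale). Ranks 1 and 2 lie above the others in control. The extract points of ranks 5, 10 and 81 and both treated points of rank 11 stand far above the control points.

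The members held 21.8%, 22.9% and 22.0% of the counts in control replicates 1 to 3. With biochanin A they held 26.5%, 26.2% and 26.8%, and with extract 27.1%, 25.5% and 23.6%. All 6 treated libraries lay above the 3 controls, and the extract libraries were spread more widely (SD of 1.75 percentage points) than the biochanin A libraries (SD of 0.28). These shares are taken of library totals, so TMM entered them only through the choice of the members. The control values chose the members, so no test is given. In RNA from whole larvae, fewer cells of a type and less RNA per cell cannot be told apart.

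A few members, picked out after their values were seen, carried much of the difference. With biochanin A the members' share was 4.27 percentage points above control, of which ranks 1 and 2 gave 1.84 points and AgR004_g277, at rank 11, gave 0.895. The consecutively numbered AgR002_g269, AgR002_g270 and AgR002_g271 gave 0.352 points, and all other members together gave 1.18. With extract the share was 3.14 points above control, and the 3 AgR002 genes gave 1.88 of these. Ranks 1 and 2 gave 0.56 points, AgR004_g277 gave 0.494 and all other members gave 0.203.

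Without the 3 AgR002 genes the members' share was 21.3 ± 0.6% (SD, n = 3) in control, against 25.2 ± 0.3% for biochanin A and 22.6 ± 0.2% for extract. The extract libraries, at 22.3% to 22.7%, then lay just above the controls at 20.9% to 22.0%. Without ranks 1 and 2 as well, the extract libraries at 17.9% to 18.1% lay within the control range of 16.8% to 18.2%, while biochanin A libraries at 18.98% to 19.63% stayed above it. That overlap rests on control replicate 2: the other control libraries were at 16.8% and 16.96%, below all 3 extract libraries. With AgR004_g277 left out too, the biochanin A libraries, at 17.74% to 18.37%, overlapped the controls at 16.44% to 17.84%. Control replicate 2 was again the highest control library. The extract libraries were then at 17.03% to 17.32%. Counted by member, 100 of the 150 had a larger mean share of the library with biochanin A than in control, and 83 did with extract.

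**Figure D2:**
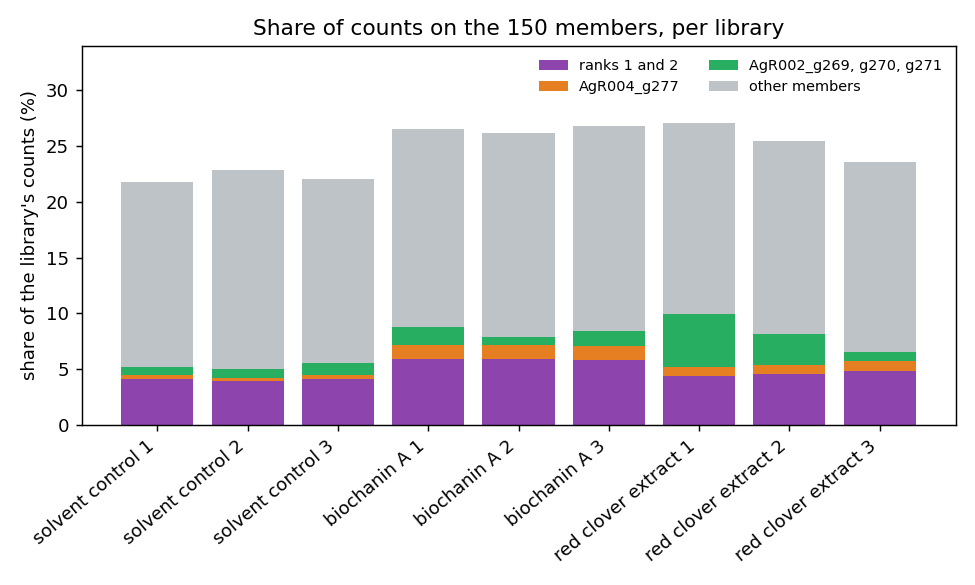
Share of each library's counts (%) on the 150 members, one stacked bar per library, split into ranks 1 and 2, AgR004_g277, the 3 AgR002 genes and all other members. The segment of the AgR002 genes is 4.76% in extract replicate 1, 2.78% in extract replicate 2 and 0.845% in extract replicate 3.

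AgR002_g269, AgR002_g270 and AgR002_g271, at ranks 5, 10 and 81, were the members that varied most between libraries of the same group. They were singled out after their values were seen. AgR002_g269 stood at 3545, 3995 and 5370 CPM in control, 9041, 4242 and 7497 CPM with biochanin A, and 25645, 14684 and 4274 CPM with extract. Extract replicates 1 and 2 were far above every other library, and extract replicate 3 lay within the control range. The other two followed it closely: across the 9 libraries AgR002_g270 was 0.76 to 0.78 times and AgR002_g271 0.163 to 0.188 times as high. The coefficient of variation of AgR002_g269 was 22.1% among control libraries, 35.4% among biochanin A and 71.9% among extract libraries. For extract against control its log2 fold change was 1.79 ± 0.65 (SE), and edgeR's quasi-likelihood test gave an adjusted p of 0.13. That call depends on the tool and on 1 library: the adjusted p was 0.01 with DESeq2, 0.023 without extract replicate 3, and 0.01 to 0.33 over all alternatives. Whether these 3 genes differ in the larvae, in a subset of them or in the preparation of the libraries was not tested.

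The median member varied less than the median tested gene. In control and extract libraries it varied more than the median gene at ranks 151 to 300. The median coefficient of variation over the 150 was 7.29% for control, 2.52% for biochanin A and 5.80% for extract libraries, against 11.7%, 9.75% and 10.1% over all tested genes and 5.7%, 2.61% and 5.39% at ranks 151 to 300. Besides the AgR002 genes, 2 members exceeded 20% in any group. One is rank 8, at 3397, 4962 and 5001 CPM with biochanin A, where replicate 1 was low. The other is rank 128, at 936.5, 1044 and 689.5 CPM with extract, where replicate 3 was low.

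Control replicate 2 stood apart for the abundant transcripts as a class. The median member was 7.78% above its group mean there, and its deviation was -3.40% and -4.19% in control replicates 1 and 3. Control replicate 2 held the highest control value for 113 of the 150 members (75.3%), against 37.5% of all tested genes. At ranks 151 to 300 the median deviation was 0.07 on the log2 scale, against 0.11 for the members. In the treated groups the median member deviated by at most 3.28% in any library. For ranks 1 and 2 control replicate 2 was instead the lowest of the 3. What part this library has in the fold changes against control was not tested, and counts without it are given beside those it moves.

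**Figure D3:**
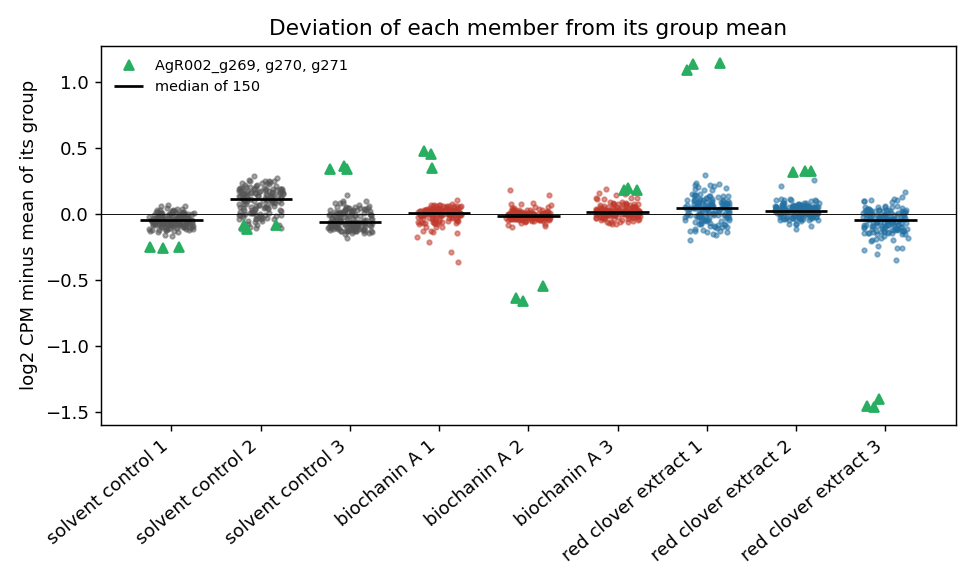
Log2 CPM of each member minus the mean of its group, for the 9 libraries, with the median of the 150 as a bar and the 3 AgR002 genes as triangles. The median in control replicate 2 lies 0.108 above 0. The AgR002 genes lie furthest from 0 in extract replicates 1 and 3. They also lie outside the cloud in other libraries, among them biochanin A replicates 1 and 2 and control replicate 3.

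Some abundant transcripts had consecutive identifier numbers. Positions in the genome were not analysed here. Of the 150 members, 36 had another member directly before or after them in identifier number, in 16 runs of 2 to 5 genes, and 24 genes did so at ranks 151 to 300. The spread of log2 fold changes within a run had a median of 0.03 with biochanin A and 0.02 with extract, and reached at most 0.18 and 0.07. Among all member pairs, 3 pairs had counts within 3% of each other in every library; the closest, at ranks 43 and 44, differed by at most 0.065%. In 2 of these 3 pairs the genes were also numbered consecutively. How reads that match several genes were counted was not stated, so the values of such pairs are uncertain. Members with an X after the first number of the identifier were 28 (18.7%), against 18.9% of all genes without AgE.

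With biochanin A most of the abundant transcripts were higher than in control, by small amounts. Of the 150 estimates 128 lay above 0 under TMM scaling and 100 with library totals. At an adjusted p below 0.05, 46 members rose and 28 fell with library totals. Of all 15177 tested genes 1349 rose and 5188 fell on that scale. Under TMM 103 members rose and 11 fell, with a median called rise of 1.28-fold and a median called fall of 1.32-fold. Over all tested genes 17.2% rose and 17.8% fell under TMM. The members were chosen on the control libraries of this contrast, so these counts and those for extract against control are a description. The median log2 fold change was 0.31 for the members and -0.01 for all tested genes. At ranks 151 to 300, 95 genes rose and 14 fell, with a median of 0.25. Among the 30 most abundant members 23 rose and 0 fell by edgeR; 0 fell at an unadjusted p below 0.05 and 0 by DESeq2, while with library totals 14 rose and 1 fell.

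AgR004_g277 rose most. It stood at 3169, 3071 and 3218 CPM in control and at 13215, 12766 and 13566 CPM with biochanin A, a log2 fold change of 2.06 ± 0.07 (SE). Its rank went from 11 to 3, and the libraries of the groups were far apart. AgB13X_g088 rose from 703.3, 837.1 and 735.1 CPM to 1705, 1674 and 1715 CPM, a log2 fold change of 1.16 ± 0.07. The lowest treated library was again well above the highest control library. AgB01_g233, at rank 1, rose 1.61-fold, to 34666, 34553 and 34684 CPM. AgB01_g234 rose 1.80-fold, to 27766, 27651 and 27498 CPM, so the members at ranks 1 and 2 kept their places.

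The falls were fewer and none reached 2-fold under this scaling. AgR024_g041 dropped from 772.4, 798.6 and 826.9 CPM in control to 398.1, 447.7 and 461.7 CPM, a log2 fold change of -0.88 ± 0.07. It moved from rank 73 to rank 315, the lowest that any member reached with biochanin A. AgB02_g452 dropped from 802.3, 944.3 and 903.2 CPM to 625.7, 620.5 and 598.0 CPM, a log2 fold change of -0.52 ± 0.07. Neither gene had overlapping libraries between the groups, which the rule for naming members required.

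Red clover extract moved fewer of the abundant transcripts. Of the 150 members 53 rose and 15 fell, against 9.39% and 7.90% of all tested genes. Called rises had a median size of 1.25-fold, called falls one of 1.26-fold. The median log2 fold change was 0.17 for the members, -0.01 for all tested genes and 0.13 at ranks 151 to 300, where 51 genes rose and 14 fell. The count of rises changed when single libraries were left out. It was 83 without control replicate 2, 29 without control replicate 1, 34 without control replicate 3 and 33 without extract replicate 2. Where a control was left out, the members were chosen again on the remaining controls. Calls over all tested genes were not counted in these fits, so the changes cannot be called particular to the members. The same 150 members gave 32 rises and 10 falls in a fit of control and extract libraries alone, and 68 rises and 18 falls with DESeq2.

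AgR004_g277 again rose most among the called members, to 8462, 8289 and 8837 CPM, a log2 fold change of 1.44 ± 0.06 (SE). AgR035X_g015, near the limit at rank 142, rose from 550.0, 549.4 and 561.0 CPM in control to 914.9, 986.0 and 991.8 CPM, a log2 fold change of 0.80 ± 0.06. With biochanin A it stood at 1012, 1004 and 998.4 CPM, so both treated groups lay above control without overlap. AgB02_g452 fell to 492.5, 563.8 and 516.9 CPM, a log2 fold change of -0.75 ± 0.07. The consecutively numbered AgB02_g451 fell from 870.2, 1033 and 972.9 CPM to 533.9, 613.7 and 568.6 CPM, a log2 fold change of -0.74 ± 0.07. For both genes all 3 extract libraries also lay below all 3 biochanin A libraries.

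How many members count as rises or falls against control changes with the scaling. When library totals replaced TMM, the median log2 fold change of all tested genes shifted to -0.22 with biochanin A and -0.16 with extract. The members then counted 46 rises and 28 falls with biochanin A, so 62.2% of their calls were rises against 90.4% with TMM. With extract they counted 22 rises and 28 falls (44% against 77.9%). Over all 15177 tested genes library totals gave 1349 rises and 5188 falls with biochanin A, and 744 and 2926 with extract. With total counts of the genes that are not members as the scale, members counted 78 rises and 20 falls with biochanin A. With extract they counted 30 rises and 21 falls. Over all tested genes that scale gave 1763 rises and 4158 falls with biochanin A, and 930 and 2092 with extract. The members' median minus that of all tested genes was 0.32 with biochanin A and 0.18 with extract. A scale moves all genes of a library alike, so this difference is fixed whatever the scale and is no sign of stability.

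Because control libraries chose the members, the choice was repeated on 2 control libraries at a time, with the control value read from the third. With control replicates 1, 2 and 3 held out in turn, the new sets shared 148, 145 and 149 genes with the 150 members. The median log2 ratio of biochanin A to the control library held out was 0.37, 0.18 and 0.38. For extract it was 0.24, 0.06 and 0.25. The share of counts in the library held out was 21.8%, 22.8% and 22.0%, below the lowest treated library for that set each time. Because the new sets are nearly the members themselves, these shares could hardly differ from those of the members. They are no independent check. The smallest ratios belonged to control replicate 2, where 95 of 150 genes were higher with extract and 55 lower.

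**Figure D4:**
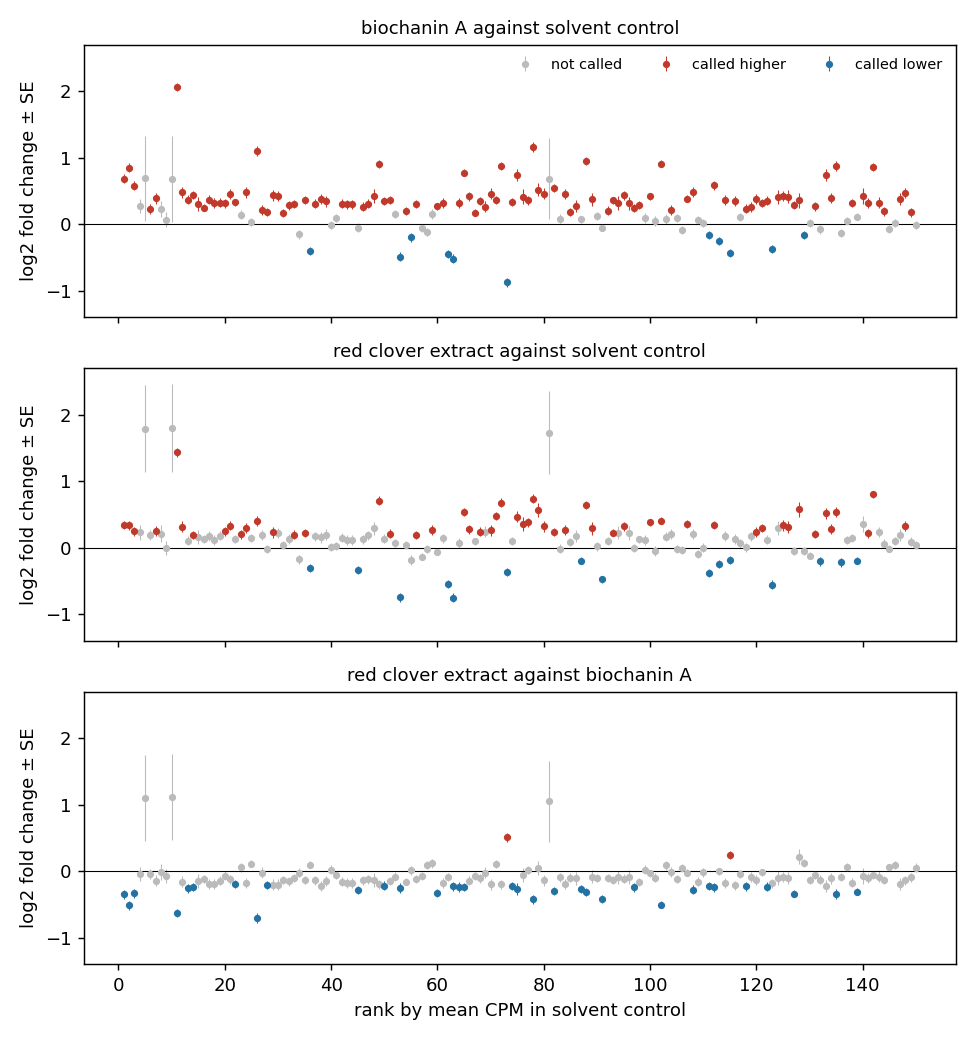
Log2 fold change ± SE of each member by its rank in control, for biochanin A against control, extract against control and extract against biochanin A, coloured by call (adjusted p below 0.05). In the upper panel 103 points are called higher and 11 lower, and in the lower panel 33 of the 35 called points lie below 0.

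The difference between extract and biochanin A uses no level from the libraries that chose the members. The doses are not matched, so it compares these 2 exposures only. Of the 150 members 33 were called lower and 2 higher with extract and 115 did not pass the test, against 7.57% lower and 7.07% higher over all tested genes. With library totals as the scale 22 were called lower and 5 higher, so that 18.5% of the calls were higher, against 5.71% with TMM. Over all tested genes library totals gave 776 lower and 1615 higher. The median log2 difference was -0.13 for the members and -0.01 for all tested genes, and 126 of the 150 estimates were below 0. At ranks 151 to 300, 34 genes were lower and 6 higher, with a median of -0.09. The sizes were small, with a median called difference of 1.20-fold downward. The count of lower members was 17, 19 and 20 without biochanin A replicate 1, 2 or 3. It was 57 without control replicate 2, where the members were chosen again on the remaining controls. That library shares the estimate of spread and the scaling but holds neither exposure. For the same 150 members the count was 52 in a fit of the 2 treated groups alone and 53 with DESeq2. In none of these alternative fits were calls over all tested genes counted.

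AgR006_g005, at rank 26, differed most downward. It stood at 3143, 3332 and 3321 CPM with biochanin A and at 1742, 2045 and 2248 CPM with extract, a log2 difference of -0.70 ± 0.08 (SE, adjusted p = 6.3e-06, edgeR). In control it was at 1542, 1487 and 1555 CPM, so extract lay between the other groups, and the extract libraries were more spread. AgR004_g277 was lower with extract by a log2 difference of -0.63 ± 0.06 (adjusted p = 2.9e-06). AgB01_g234, with 19331, 19025 and 19673 CPM, was lower by -0.51 ± 0.06 (adjusted p = 2.6e-05). AgB01_g233, with 26331, 27755 and 27669 CPM, was lower by -0.35 ± 0.07 (adjusted p = 0.0015).

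Of the 2 members called higher with extract than with biochanin A, AgR024_g041 stood at 601.2, 599.3 and 662.5 CPM with extract, between the biochanin A and control libraries (log2 difference 0.51 ± 0.07, adjusted p = 3.4e-05). AgB21_g019, at rank 115, stood at 612.7, 668.6 and 612.6 CPM in control, 489.0, 468.5 and 441.5 CPM with biochanin A and 572.4, 523.1 and 563.5 CPM with extract. Its log2 difference was 0.25 ± 0.06, with an adjusted p of 0.011 that became 0.07 without biochanin A replicate 3 and ranged from 0.0014 to 0.07 over all alternatives. AgR035X_g015 differed by -0.06 ± 0.06 (adjusted p = 0.55), and the AgR002 genes by 1.05 to 1.12 with an SE of 0.61 to 0.65 (adjusted p of 0.33 to 0.34).

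**Figure D5:**
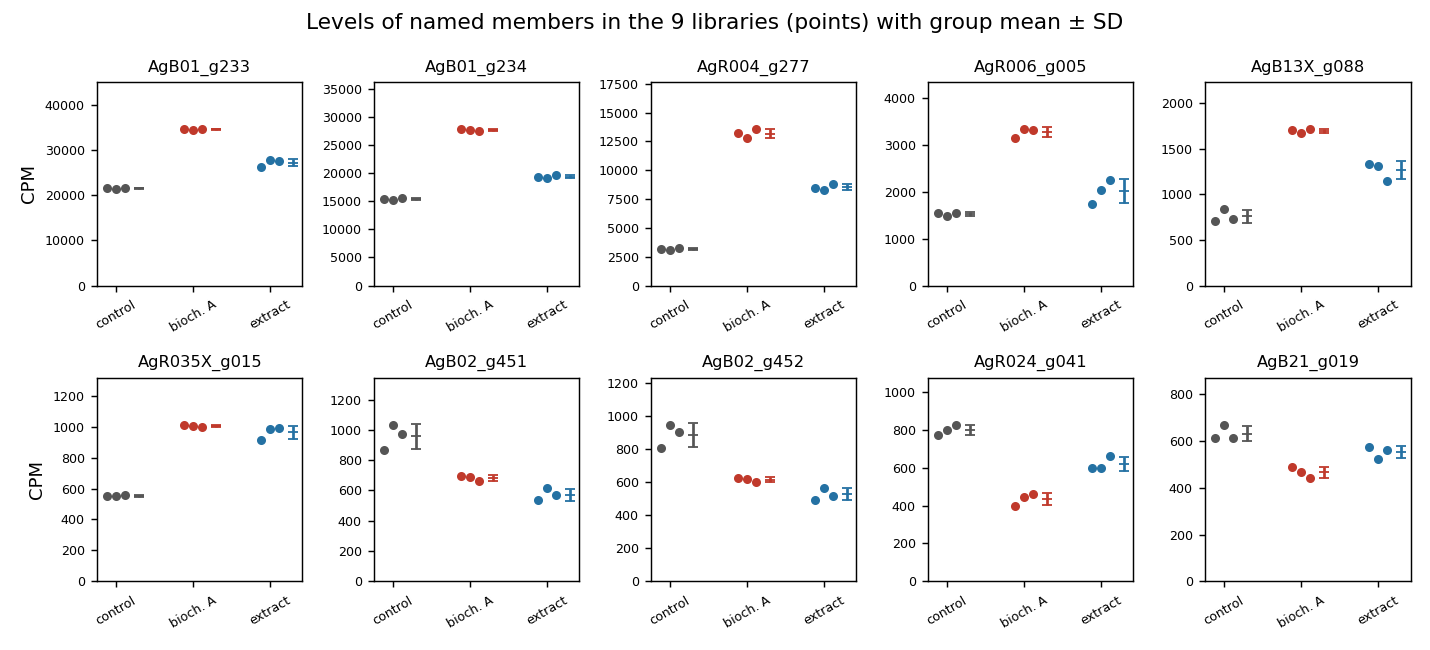
CPM in each of the 9 libraries (points) with the group mean ± SD beside them, for 10 members described in the text; each vertical axis starts at 0. For AgR004_g277 the extract libraries, at 8289 to 8837 CPM, lie between control and biochanin A.

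The order of the abundant transcripts was largely kept. Of the 150 members 125 were also among the 150 highest with biochanin A and 131 with extract. Of the 10 most abundant, 9 stayed among the 10 most abundant in each treated group, and of the 50 most abundant 45 did in each. The highest rank to leave the 150 in either group was rank 53, AgB02_g451, which stood at rank 151 with biochanin A and rank 172 with extract. Into the places that became free came genes from outside the set: the best placed in both treated groups was the gene at control rank 207, which went from 449.3 CPM in control to rank 28 with biochanin A (1894 CPM) and rank 32 with extract (1563 CPM).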

How the data were processed

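The authors deposited whole-number counts of reads for each gene in 9 libraries, not normalized. Per the file headers the annotation is WBPS19 of Ascaris suum; the submitters' processing notes name DESeq2 but not what it was used for. Aligner, counting tool and strandedness: not given in the sources used here. Reads of overlapping or antisense genes may therefore be mixed. Columns were matched to samples by library name; 0 were left over.

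The filter (filterByExpr) kept 15177 genes. Counts were scaled with TMM factors from all genes and tested with edgeR's quasi-likelihood test (version 4.0.16 under R 4.3.3), fitted as a single model of 3 groups (6 residual degrees of freedom), without a block; p-values were adjusted by Benjamini-Hochberg over all tested genes, with a threshold of 0.05. The SE is the absolute log2 fold change divided by the square root of F. Shares are percentages of library totals, which ran from 44324212 to 53786882. Log2 deviations used an offset of 0.5 CPM. The workflow was tested on simulated counts drawn with a single common spread for all genes. The members' own spreads differ, so no conclusion about them is drawn from it.

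Nothing says that replicates are separate cultures, so p-values measure only how these samples vary, and that variation may be technical. Deviations of same-numbered libraries correlated between -0.075 and 0.069. Members were chosen with earlier results of these data known. By rule, each comparison names at most 2 rises and 2 falls, taking the biggest log2 fold changes of called members whose groups did not overlap; AgB01_g233, AgB01_g234 and AgR002_g269 to AgR002_g271 were added after their values were seen. Alternatives included DESeq2 1.42.0, other scalings, no filter, other set sizes, a replicate block and leaving out each library. Gene lists by product name were not tested, since no names were used here.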

Additional observations from a re-analysis of the deposited data

How the results depend on the processing

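The direction of every median over the members, and of every named member called in a comparison, was the same under all alternatives run. With library totals as the scale the members' calls were 46 rises and 28 falls for biochanin A against control, 22 rises and 28 falls for extract against control, and 5 higher and 22 lower members for extract against biochanin A; the medians were 0.102, 0.025 and -0.068. With the total of genes that are not members as the scale, falls with biochanin A numbered 20 and rises with extract 30, with medians of 0.183 and 0.085. These scalings shift all genes alike within a library. Over all tested genes library totals gave 1349 rises and 5188 falls with biochanin A, and 744 and 2926 with extract. For extract against biochanin A they gave 1615 higher and 776 lower genes. With the total of genes that are not members, all tested genes gave 4158 falls with biochanin A and 930 rises with extract. A fit of 2 groups at a time gave 32 rises for extract against control, where DESeq2 gave 68. For extract against biochanin A the fit of 2 groups gave 52 lower members and DESeq2 gave 53. The cause was not tested. Leaving out 1 library at a time gave 87 to 106 rises and 8 to 12 falls with biochanin A. With extract it gave 29 to 83 rises and 12 to 15 falls. For extract against biochanin A it gave 17 to 57 lower and 1 to 3 higher members. Where the library left out was a control, the members were chosen again on the remaining controls. Calls over all tested genes were not counted with a library left out.

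Taking 100 members gave 6 falls with biochanin A, 8 falls with extract and 1 higher member for extract against biochanin A, and taking 200 gave 4 of the last; these sets hold fewer or more genes. The members' share in control, biochanin A and extract was 18.96%, 23.13% and 22.12% with 100 members, 24.88%, 29.34% and 28.11% with 200, and 23.68%, 28.24% and 27.28% with AgE identifiers allowed. The next sets were chosen after seeing the data. Without the AgR002 genes the shares were 21.31%, 25.23% and 22.57%, and without ranks 1 and 2 as well 17.31%, 19.38% and 18.0%. Without AgR004_g277 too they were 16.96%, 18.14% and 17.17%. With control replicates 1, 2 and 3 held out, the median for extract was 0.236, 0.063 and 0.253; for biochanin A it was 0.182 with replicate 2 held out and 0.377 with replicate 3, and the share in control replicate 2 was 22.81%.

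Replicate numbers are shared between groups, but nothing says that they pair the libraries. With a replicate block the calls among members numbered 104 rises and 10 falls with biochanin A, 56 and 14 with extract, and 2 higher and 32 lower for extract against biochanin A. Over all tested genes the block gave 5292, 2617 and 2187 calls, against 5302, 2624 and 2222 without it. The smallest count of any member was 18213, so 3 libraries per group limit precision more than counting does.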
